A study of Mus musculus with 8 samples.

Results

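Contact profiles were followed for the 500-kb bins that hold 7 genes of the pluripotency network, *Pou5f1*, *Sox2*, *Nanog*, *Klf4*, *Esrrb*, *Tbx3* and *Prdm14*, in Hi-C maps of mouse embryonic stem cells (mESCs). The bins were chosen by the mm9 position of each gene, without contact values. All 7 passed the limit on coverage, and they are 7 of the 5093 bins that did.

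These genes encode transcription factors and chromatin regulators that keep embryonic stem cells able to form all tissues of the embryo. Mouse chromosomes fold into A compartments, rich in active genes and B1 repeats, and B compartments, rich in L1 repeats and inactive chromatin, and bins of one kind tend to touch bins of the same kind. L1 RNA, transcribed from the LINE1 retrotransposon family, is the target of the treatment, and the comparison asks how the surroundings of these genes differ once that RNA is blocked.

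Both groups are mESCs grown with LIF, nucleofected with an antisense morpholino oligo (AMO) at 5 nmol per 100 μl, sorted at 12 h for cells that had taken up the oligo and harvested at 36 h. One group received L1 AMO, which targets L1 RNA, and the other a scramble control (SCR AMO), with 2 samples in each. The study describes 2 independent transfection experiments. The oligos are printed because they are the only difference in treatment between the groups. Their sequences come from the study's list of oligonucleotides, and no part is capitalised.
L1 AMO: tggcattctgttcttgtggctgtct
SCR AMO: cctcttacctcagttacaatttata

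The maps held 112381720 and 22252054 contacts in SCR AMO samples 1 and 2, and 58030519 and 46263849 in L1 AMO samples 1 and 2. The totals of the SCR AMO maps depart from the read pairs that the study tabulates for them, while those of the L1 AMO maps are close. Over pairs of bins on one chromosome, the chi-square per pair was 0.989 and 0.964 between the repeat matrices of one L1 AMO sample. It was 1.02 for SCR AMO sample 1 against sample 2. Between L1 AMO samples 1 and 2 it was 1.04 to 1.06 for single matrices and 1.13 with repeat matrices added. The SCR AMO samples also differed in the share of within-chromosome contacts that stay inside one bin, at 37.4% and 40.9%, whereas the repeat matrices had 39.8% and 39.8% in L1 AMO sample 1 and 41.3% and 41.3% in sample 2. Repeat matrices were therefore added and the SCR AMO samples kept apart.

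Chromosome 1, which carries *Prdm14*, had another coverage in each group. Its median bin coverage relative to the median autosomal bin was 0.975 in SCR AMO sample 1 and 0.975 in sample 2, against 1.32 and 1.37 in the L1 AMO samples. Chromosome 14, which carries no gene of the list, likewise had 0.841 and 0.855 against 1.13 and 1.20. The chromosomes of the other 6 genes lay between 0.867 and 1.02 in every sample. The cause was not tested, and values of *Prdm14* that are counts rather than shares are given with this coverage beside them.

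The core factors *Pou5f1*, which encodes OCT4, *Sox2*, which encodes its DNA-binding partner, and *Nanog* lie on different chromosomes. The *Pou5f1* bin is chr17:35500001-36000000, between H2-Q genes of the major histocompatibility complex and *Tcf19* in the gene order of GRCm38. The *Sox2* bin is chr3:34500001-35000000. The *Nanog* bin is chr6:122500001-123000000, and *Dppa3* and *Gdf3*, other genes used as markers of pluripotent cells, are among its neighbours in GRCm38. Of the factors that sustain the naive state, *Klf4*, a zinc-finger factor, lies in chr4:55500001-56000000, the orphan nuclear receptor gene *Esrrb* in chr12:87500001-88000000 and the T-box factor gene *Tbx3* in chr5:120000001-120500000. *Prdm14*, a regulator of germ cell fate and DNA methylation, lies in chr1:13000001-13500000.

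The compartment of a bin was read from eigenvector 1 of the observed/expected map pooled over the 4 samples, as the bin's percentile among the kept bins of its chromosome, with 100 at the A end. The percentile was 82.4 for *Pou5f1*, 92.2 for *Sox2*, 89.0 for *Esrrb* and 82.5 for *Prdm14*. These 4 bins belong to the A corner, the 20% of each autosome at the A end, which holds 955 of 4780 autosomal bins. *Tbx3* stood just below that limit at 77.0. *Klf4*, at 58.1, and *Nanog*, at 57.5, lie near the change between compartments. The bins on either side of *Nanog* were at 52.7 and 22.0, and those on either side of *Klf4* at 69.4 and 48.8.

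The preference of each bin for A over B partners on its own chromosome was lower after L1 AMO for all 7 genes. It was measured beyond 2 Mb as the log2 ratio of the mean observed/expected contact with A corner bins to that with B corner bins, in maps balanced for coverage. *Pou5f1* stood at 2.15 and 2.26 in SCR AMO and at 1.34 and 1.17 in L1 AMO. *Sox2* had 1.68 and 1.56 against 1.28 and 1.13. *Nanog*, with a weak preference from the start, had 0.31 and 0.28 against -0.02 and -0.28. The groups did not overlap for any of these core factors, and *Nanog* moved from a slight preference for A to none or to a slight preference for B.

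Among the naive-state factors, *Klf4* had 0.42 and 0.09 in SCR AMO and -0.36 and -0.46 in L1 AMO, so its bin went from the A side to the B side of zero in both samples. *Esrrb* had 1.71 and 1.73 against 1.38 and 1.22, and *Tbx3* had 2.09 and 1.81 against 1.25 and 1.37. *Prdm14* had 1.50 and 1.53 against 1.30 and 1.12. Here too no L1 AMO sample reached the SCR AMO range, and the 5 bins other than *Klf4* and *Nanog* kept a preference for A above 1.

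**Figure D1:**
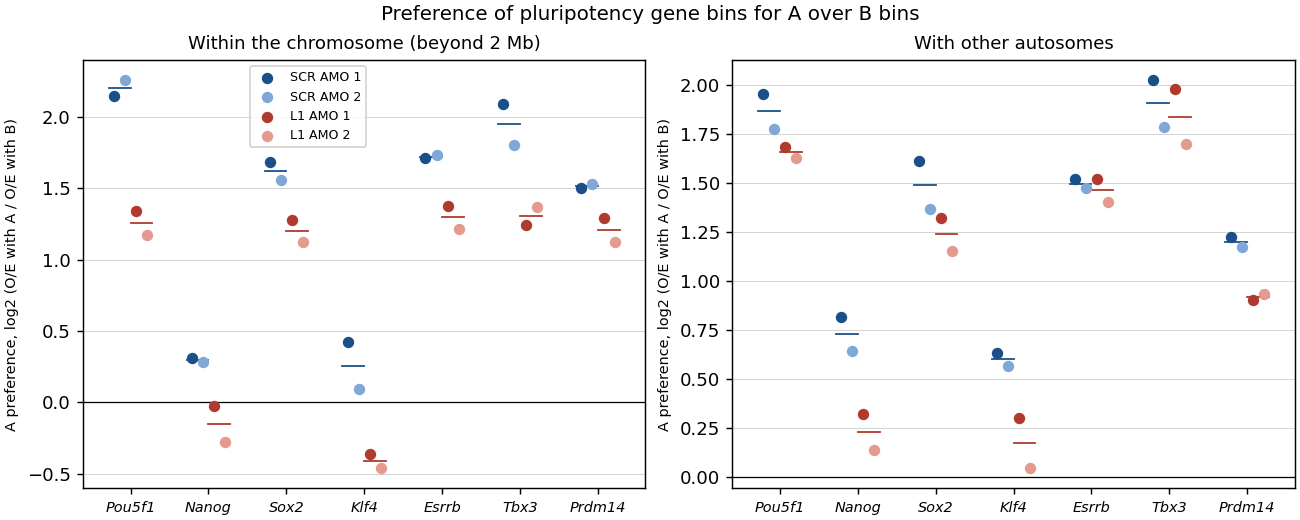
Preference of the 7 gene bins for A over B bins (log2 ratio of observed/expected, y axis) within the chromosome (left) and with other autosomes (right), 1 point per sample with group means as lines. Within the chromosome L1 AMO points lie lower than SCR AMO points for all 7 genes, with *Klf4* and *Nanog* lowest, and with other autosomes the groups overlap for *Esrrb* and *Tbx3*.

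In 7 of 7 gene bins the groups were apart, with L1 AMO lower in each sample, against 52.6% of all 4780 autosomal bins. The median difference was -0.45 for the 7 bins and -0.18 for all autosomal bins, but A corner bins had -0.52, a larger change than that of *Sox2*, *Esrrb* or *Prdm14*. The change of *Pou5f1*, -0.95, sat at percentile 0.941 of all autosomal bins, while *Klf4* at -0.67 and *Tbx3* at -0.64 sat at percentiles 7.57 and 8.68. The other 4 bins were between percentiles 22.9 and 36.8, well within the spread of the genome.

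The components of this ratio differed between genes. For *Pou5f1*, observed/expected contact with B corner bins was 0.405 and 0.365 in SCR AMO and 0.612 and 0.657 in L1 AMO, a change at percentile 98.1 of all bins, while contact with A corner bins went from 1.79 and 1.75 to 1.55 and 1.48. For *Klf4*, contact with B corner bins was 0.731 and 0.769 against 0.966 and 0.932, at percentile 93.3. For *Esrrb*, contact with A corner bins was 1.65 and 1.63 against 1.36 and 1.31, at percentile 5.61, and its contact with B corner bins differed by 0.0484 between group means. The median differences of A corner bins, to which *Pou5f1* and *Esrrb* belong, were 0.115 for contact with B corner bins and -0.203 for contact with A corner bins, against 0.0579 and -0.0393 for all autosomal bins. The differences of *Pou5f1* were 0.249 and -0.258, and that of *Esrrb* with A corner bins was -0.299.

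In raw counts, the A share of a bin is the percentage of its contacts with A and B corner bins of its chromosome, beyond 2 Mb, that involve A bins. *Klf4* had the largest log2 change of this share in the list, with 40.2% and 34.3% in SCR AMO against 23.9% and 22.5% in L1 AMO. Its log2 change was -0.75 (SE 0.0659, adjusted p = 2.18e-05 in edgeR's quasi-likelihood test over all autosomal bins), which sits at percentile 0.167 of those bins. *Esrrb* had 74.9% and 74.4% against 64.6% and 61.1%, and *Pou5f1* had 87.3% and 88.7% against 78.3% and 75.2%. *Sox2* had 81.1% and 80.1% against 74.6% and 69.7%, and *Prdm14* had 78.1% and 79.0% against 72.9% and 70.0%. In none of these 5 bins did the samples of the groups overlap.

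The A share fell in 5 of 7 gene bins, while 42.6% of all autosomal bins fell (edgeR, adjusted p under 0.05). After *Klf4* the log2 changes were -0.25 for *Esrrb* (SE 0.0295, adjusted p = 7.06e-05), -0.19 for *Pou5f1* (SE 0.0292, adjusted p = 0.000357), -0.16 for *Sox2* (SE 0.0354, adjusted p = 0.00300) and -0.13 for *Prdm14* (SE 0.0397, adjusted p = 0.0169), all from edgeR. Within the A corner 4 of 4 gene bins fell, and so did 70.5% of all A corner bins. The median log2 change of this share over the A corner was -0.13, and among its 955 bins *Pou5f1* sat at percentile 35.1, *Sox2* at 41.6, *Esrrb* at 21.8 and *Prdm14* at 51.4. On the balanced preference *Pou5f1* went further than its compartment, with -0.95 against the A corner median of -0.52. DESeq2 called 3 of the 5, *Klf4*, *Pou5f1* and *Esrrb*, and the same 3 were called by edgeR without SCR AMO sample 1, the deepest map, where 24.7% and 19.9% of all autosomal bins were lower. *Prdm14* was lost without SCR AMO sample 2 and without L1 AMO sample 2, where fewer of all autosomal bins were lower too. *Nanog* was added without L1 AMO sample 1, where about as many of all autosomal bins were lower as on all samples. The median log2 change of all autosomal bins was -0.069, -0.050 and -0.093 in these fits in turn, against -0.067 on all samples.

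*Nanog* and *Tbx3* did not pass this test. *Nanog* had an A share of 68.6% and 66.0% in SCR AMO and 67.9% and 63.0% in L1 AMO, and *Tbx3* had 93.0% and 91.9% against 90.5% and 89.8%. With contacts beyond 10 Mb alone, the share of *Nanog* was 50.1% and 48.3% against 42.2% and 34.8% (edgeR log2 change -0.35, adjusted p = 4.31e-05), and that of *Tbx3* was 80.3% and 79.7% against 69.2% and 66.4% (edgeR log2 change -0.24, adjusted p = 0.000533). In that setting 48.2% of all autosomal bins were lower. For these 2 bins the outcome of the raw share thus depended on which distances were counted. Raw counts near the bin weigh most in the first share, whereas the balanced preference above weighs every distance alike. The preference also differs from the share in balancing and in form, and these differences were not tested apart. Over all settings tried, adjusted p for *Nanog* ran from 4.31e-05 to 0.969 and for *Tbx3* from 0.000533 to 0.808.

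Eigenvector 1 was also computed for each sample. *Klf4* had values of 0.462 and 0.160 in SCR AMO and -0.513 and -0.794 in L1 AMO, and its percentile on chromosome 4 went from 64.7 and 58.4 to 54.5 and 45.5. *Nanog* had 0.494 and 0.454 against 0.140 and -0.0938, with percentiles of 59.2 and 58.2 against 58.2 and 55.5 that overlap. For the other 5 genes eigenvector 1 stayed between 0.975 and 1.46 in every sample, so none of them left the A side.

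**Figure D2:**
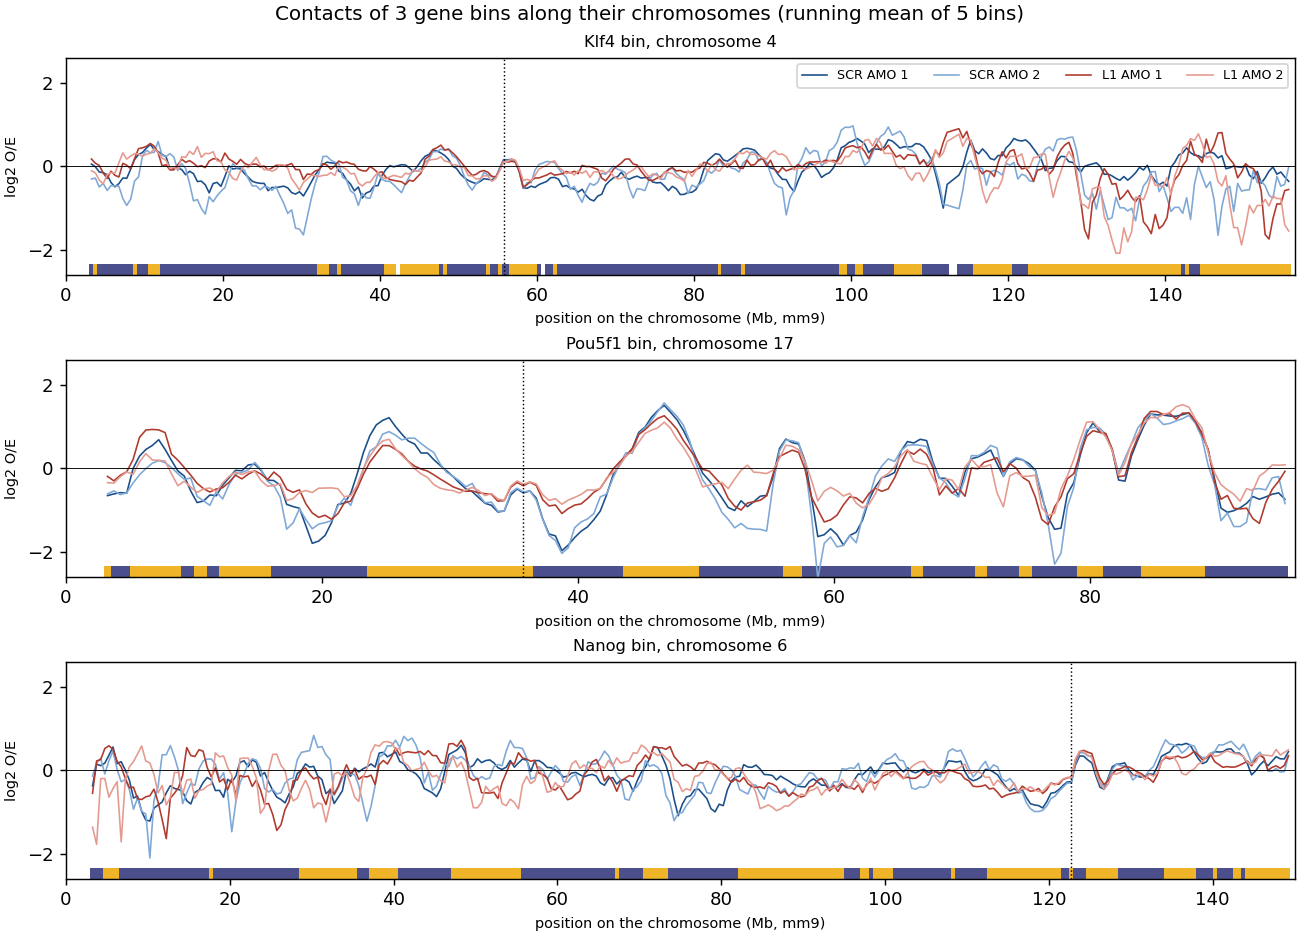
Log2 observed/expected contact of the *Klf4*, *Pou5f1* and *Nanog* bins (dotted lines) along their chromosomes (x axis, Mb in mm9), 1 line per sample as a running mean of 5 bins; the strip below marks bins with positive (yellow) and negative (blue) pooled eigenvector 1. Over all B corner bins of the chromosome beyond 2 Mb the mean observed/expected of *Pou5f1* was 0.405 and 0.365 in SCR AMO and 0.612 and 0.657 in L1 AMO, and that of *Klf4* was 0.731 and 0.769 against 0.966 and 0.932.

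Between chromosomes the order of the genes was another. The preference for A over B corner bins of other autosomes was 0.81 and 0.64 for *Nanog* in SCR AMO and 0.32 and 0.14 in L1 AMO, and for *Klf4* 0.63 and 0.57 against 0.30 and 0.04. *Pou5f1*, with the largest change of the balanced preference inside its chromosome, had 1.96 and 1.78 against 1.68 and 1.63. The groups overlapped for *Esrrb* (1.52 and 1.47 against 1.52 and 1.40) and *Tbx3* (2.03 and 1.79 against 1.98 and 1.70). L1 AMO was lower in each sample, without overlap, for 5 of 7 bins, against 60.3% of all autosomal bins, and the changes of *Nanog* and *Klf4* sat at percentiles 2.01 and 5.15.

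In raw counts the A share of contacts with other autosomes fell in 2 of 7 gene bins by edgeR (adjusted p under 0.05), beside 41.3% of all autosomal bins. *Nanog* had 69.5% and 66.3% against 60.3% and 55.5% (edgeR log2 change -0.24, SE 0.0570, adjusted p = 0.000683). *Klf4* had 66.6% and 65.1% against 60.2% and 54.2% (edgeR log2 change -0.20, SE 0.0590, adjusted p = 0.00461). DESeq2 called 0 of 7 gene bins, with unadjusted p of 0.000623 for *Nanog* and 0.0169 for *Klf4*, and only 25 of 4780 bins overall. Neither *Nanog* nor *Klf4* passed in edgeR without SCR AMO sample 1 or without SCR AMO sample 2, and only *Nanog* passed without L1 AMO sample 2. Far fewer of all autosomal bins passed in each of these fits too. Their median log2 change was -0.10, -0.13 and -0.087 there, against -0.12 on all samples.

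Single partners were tested over 408767 pairs of bins on one chromosome with a mean of at least 10 counts, by edgeR with TMM normalisation. The 7 gene bins took part in 1205 of these pairs, of which 98 were called higher and 90 lower in L1 AMO, at 8.13% and 7.47%, while 7.07% of all pairs were called higher and 4.56% lower. *Prdm14*, on chromosome 1 with its coverage of 0.975 and 0.975 against 1.32 and 1.37, made up 46 of the 98. Without it 52 of 1048 pairs were higher, 4.96%, and 90 were lower, 8.59%. The shares of all pairs still include chromosomes 1 and 14. The limit is on raw counts, to which the deepest map, SCR AMO sample 1, adds most, so pairs high in SCR AMO pass it more easily. The shares called follow it. At a mean of at least 30 counts 19.9% of gene bin pairs were lower and 16.8% higher, beside 13.4% and 14.6% of all pairs. With no filter on counts these were 2.85% and 5.71%, beside 1.75% and 4.89%.

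Of the 287 pairs of gene bins with an A corner partner, 50 were lower and 5 higher, at 17.4% and 1.74%, where 10.3% and 6.73% of all pairs with such a partner were called (edgeR). Of the 158 pairs with a B corner partner, 25 were higher and 1 lower, at 15.8% and 0.633%, beside 9.63% and 1.09% of all such pairs. Between bins of the A corner 19.7% of pairs were lower, and between A and B corners 20.4% were higher, so fewer A contacts and more B contacts are a trait of the whole A corner, to which 4 of the 7 bins belong. When counts were set against the sample's mean at the same distance on the same chromosome, 21 pairs were higher and 32 lower, 20 and 25 of them shared with the calls above, where 1.32% and 1.28% of all pairs were called. DESeq2 called 14 pairs of gene bins higher and 1 lower, at 1.16% and 0.0830%, where 0.867% and 0.0817% of all pairs were called. *Prdm14*, on chromosome 1 with its coverage of 0.975 and 0.975 against 1.32 and 1.37, made up 11 of the 14. Calls also fell in edgeR without SCR AMO sample 1, for gene bins and for all pairs, and *Prdm14* made up most of the higher ones left. Few single partners of the gene bins are therefore firm. With the distance offset the gene bins had 1.74% higher and 2.66% lower. Calls in edgeR fell without L1 AMO sample 2 as well, for gene bins and for all pairs, and *Prdm14* made up most of the higher ones.

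*Pou5f1* had 9 higher and 21 lower pairs of 137, against 1 and 0 in DESeq2 and 5 and 9 with the distance offset. With A corner partners 14 of 36 were lower, 38.9%, beside 19.7% of all pairs between A corner bins. The distance offset left 7 of 36, 19.4%, beside 6.80%. With B corner partners 5 of 11 were higher, 45.5%, beside 20.4% of all pairs between A and B corners. For *Pou5f1* the offset left 4 of these 11, 36.4%, beside 7.19%. Its clearest gain was with chr17:37500001-38000000, a B corner bin 2.0 Mb away, at 1.42 and 1.04 CPM (counts scaled to equal library size) in SCR AMO and 3.23 and 3.90 in L1 AMO. The log2 change was 1.40 (SE 0.195, edgeR adjusted p = 3.24e-09), and all 14 alternatives called it, with adjusted p from 3.79e-11 to 0.00619 (DESeq2 the highest). Its clearest loss was with chr17:26000001-26500000, an A corner bin 9.5 Mb away, at 3.46 and 2.90 CPM against 1.56 and 1.52 (log2 change -1.09, SE 0.193, edgeR adjusted p = 4.74e-06). DESeq2 gave that loss an adjusted p of 0.152, and edgeR without SCR AMO sample 1 gave 0.163, the highest over its alternatives, whose lowest was 2.31e-07.

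*Sox2* had 13 higher and 9 lower pairs of 185, against 1 and 0 in DESeq2 and 5 and 2 with the distance offset. Of the 13, 11 lay over 2 and up to 10 Mb away, where 23.8% of all pairs were called higher and 11 of 32 pairs of *Sox2*. Its clearest gain was with chr3:39000001-39500000, 4.5 Mb away at percentile 23.4 of eigenvector 1. That pair had 1.10 and 0.724 CPM in SCR AMO and 2.52 and 2.87 in L1 AMO (log2 change 1.39, SE 0.223, edgeR adjusted p = 2.89e-07), and all 14 alternatives called it. Its clearest loss, with the A corner bin chr3:88500001-89000000 at 54.0 Mb, rested on 60, 13, 14 and 5 counts in the 4 samples.

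*Nanog* had 6 higher and 23 lower pairs of 183, against 0 and 1 in DESeq2 and 2 and 9 with the distance offset. The clearest loss was with the A corner bin chr6:113000001-113500000, 9.5 Mb away, at 2.87 and 2.90 CPM in SCR AMO and 1.42 and 1.75 in L1 AMO (log2 change -0.85, SE 0.200, edgeR adjusted p = 0.00111). It was lost with DESeq2 (adjusted p = 0.492) and with edgeR without SCR AMO sample 1 (0.178) or without L1 AMO sample 1 (0.0524), and the lowest value over its alternatives was 0.000131. The clearest gain, with the B corner bin chr6:73500001-74000000 at 49.0 Mb, rested on 8, 2, 17 and 14 counts.

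*Klf4* had 13 higher and 3 lower pairs of 216. With B corner partners 9 of 55 were higher, 16.4%, beside 9.63% of all pairs with such a partner. DESeq2 called 0 higher and 0 lower pairs, with 2 and 2 at an unadjusted p under 0.05 against 31 and 18 in edgeR, and edgeR without SCR AMO sample 1 called 1 higher pair, not among the 13, and 0 lower. The clearest was with the B corner bin chr4:52500001-53000000, 3.0 Mb away, at 2.64 and 2.79 CPM in SCR AMO and 4.44 and 4.84 in L1 AMO (log2 change 0.82, SE 0.156, edgeR adjusted p = 2.67e-05). DESeq2 gave it 0.180 and edgeR without SCR AMO sample 1 gave 0.214, and the lowest value was 2.86e-06, with 11 of 14 alternatives calling it. Its clearest loss, with chr4:123000001-123500000, rested on 35, 4, 4 and 2 counts.

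*Esrrb* had 27 lower and 7 higher pairs of 175. With A corner partners 16 of 45 were lower, 35.6%, beside 19.7% of all pairs between A corner bins. With the distance offset 3 of 45 were lower, 6.67%, beside 6.80% of such pairs, so the excess was absent there. Of its lower pairs DESeq2 called 0, with 8 at an unadjusted p under 0.05 against 47 in edgeR, and edgeR without SCR AMO sample 1 called 2. The clearest loss was with chr12:100000001-100500000, 12.5 Mb away at percentile 72.2 of eigenvector 1, at 3.06 and 2.59 CPM in SCR AMO and 1.39 and 1.48 in L1 AMO (log2 change -1.03, SE 0.203, edgeR adjusted p = 5.03e-05). DESeq2 gave that loss 0.290 and edgeR without SCR AMO sample 1 gave 0.235, over a range from 4.09e-06. The clearest gain was with the B corner bin chr12:91000001-91500000, 3.5 Mb away, at 1.66 and 1.45 against 3.66 and 3.54 CPM (log2 change 1.18, SE 0.186, edgeR adjusted p = 2.07e-07), and all 14 alternatives called it.

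*Tbx3* had 4 higher and 7 lower pairs of 152, against 0 and 0 in DESeq2 and 1 and 1 with the distance offset. Its clearest loss, with the A corner bin chr5:144000001-144500000 at 24.0 Mb, had 1.33 and 1.35 CPM in SCR AMO and 0.533 and 0.493 in L1 AMO (log2 change -1.34, SE 0.316, edgeR adjusted p = 0.00111), and was lost with DESeq2 (0.455) and with edgeR without SCR AMO sample 1 (0.180) or with the first L1 AMO matrix alone (0.0740), over a range from 0.000801 in 13 alternatives, of which 10 called it. Its clearest gain, with the A corner bin chr5:122500001-123000000, was called by 7 of 14 alternatives only. Of the 13 partners named for the 7 genes, DESeq2 called 4, the gains of *Pou5f1*, *Sox2*, *Esrrb* and *Prdm14*. These lie 2.0 to 4.5 Mb from the gene. Of all pairs, edgeR called 20.1% higher over 0.5 to 2 Mb and 23.8% over 2 to 10 Mb, and DESeq2 9.31% and 2.21%. The gain of *Prdm14*, on chromosome 1 with its coverage of 0.975 and 0.975 against 1.32 and 1.37, was not called with the distance offset (edgeR adjusted p = 0.0812).

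*Prdm14* had 46 higher pairs of 157 and 0 lower by edgeR, where 67 were higher and 2 lower at an unadjusted p under 0.05. DESeq2 called 11 higher and 0 lower, with 0 lower at an unadjusted p under 0.05. The clearest gain, with chr1:15000001-15500000 at 2.0 Mb, had 4.93 and 4.35 CPM in SCR AMO and 9.55 and 9.82 in L1 AMO (log2 change 1.03, SE 0.117, edgeR adjusted p = 6.91e-13). This is the bin on chromosome 1, whose coverage was 0.975 and 0.975 against 1.32 and 1.37. With counts set against the mean of chromosome 1 at the same distance, edgeR called 0 pairs higher, 15 at an unadjusted p under 0.05, and 3 lower, and the named gain had an adjusted p of 0.0812.

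The distance at which the gene bins made contacts was next taken as shares of the contacts within the chromosome. Over 2 and up to 10 Mb, *Sox2* had 8.73% and 8.02% of its contacts in SCR AMO and 10.8% and 11.4% in L1 AMO (log2 change 0.38, SE 0.0565, edgeR adjusted p = 1.47e-10). *Nanog* had 11.2% and 10.4% against 13.3% and 12.8%, and *Prdm14* had 14.2% and 13.5% against 16.3% and 16.8%. The share rose in 6 of 7 gene bins, as it did in 91.6% of all bins (edgeR, adjusted p under 0.05), and the median log2 change was 0.26 for the 7 bins against 0.25 for all. *Tbx3*, with 11.4% and 9.99% against 11.5% and 11.6%, was not called (edgeR log2 change 0.08, adjusted p = 0.165), and *Pou5f1* was at percentile 10.6. Without SCR AMO sample 1 *Tbx3* passed as well, where more of all bins passed too. *Pou5f1* was lost without L1 AMO sample 1 and without L1 AMO sample 2, where fewer of all bins passed. The median log2 change of all bins was 0.31 without SCR AMO sample 1 and 0.26 in the fits without an L1 AMO sample.

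Beyond 10 Mb, *Esrrb* went furthest, with 24.5% and 22.0% of its contacts in SCR AMO and 17.7% and 17.4% in L1 AMO (log2 change -0.42, SE 0.0594, edgeR adjusted p = 8.65e-11), at percentile 2.96 of all bins. *Pou5f1* had 24.0% and 21.1% against 19.6% and 19.4%, and *Nanog* had 23.5% and 22.8% against 20.0% and 19.8%. *Klf4* overlapped, with 23.3% and 21.1% against 21.3% and 20.4% (edgeR adjusted p = 0.0941). The share fell in 6 of 7 gene bins by edgeR (adjusted p under 0.05), beside 58.2% of all bins. In balanced maps the median difference in this share was -2.95 percentage points for the 7 bins, -2.03 for all autosomal bins and -4.23 for A corner bins. Without L1 AMO sample 1 only *Esrrb* and *Sox2* were called, 2 in all, and without L1 AMO sample 2 only *Esrrb*, 1 in all, while the share of all bins called lower went from 58.2% to 26.1% and 7.95%. Without SCR AMO sample 1 *Pou5f1* was lost, and fewer of all bins were lower. Without SCR AMO sample 2 *Klf4* was added, and more of all bins were lower. The median log2 change of all bins was -0.11 and -0.19 in these fits, against -0.16 on all samples.

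Closer to the genes, over 0.5 to 2 Mb, *Pou5f1* had 31.1% and 31.1% in SCR AMO and 32.6% and 32.0% in L1 AMO, and *Klf4* had 45.0% and 43.6% against 42.3% and 41.5%. *Pou5f1* was the 1 of 7 called higher (edgeR log2 change 0.06, SE 0.0245, adjusted p = 0.0402), where 3.44% of all bins were higher. *Klf4* was the 1 of 7 called lower (edgeR log2 change -0.09, SE 0.0279, adjusted p = 0.00624), where 40.8% of all bins were lower. In balanced maps 2 of 7 gene bins were higher and 2 lower without overlap, beside 9.58% and 60.1% of all autosomal bins. There the change of *Esrrb* sat at percentile 98.4 and that of *Pou5f1* at 93.6. Both are A corner bins, whose median difference was 0.194 percentage points, against -1.40 for all autosomal bins. DESeq2 called 0 of 7, where 0.962% of all bins were higher and 21.7% lower, while 2 of 7 bins had an unadjusted p under 0.05 in edgeR on all samples. Without SCR AMO sample 1 no gene bin passed in edgeR, and few of all bins did. Only *Klf4* passed without SCR AMO sample 2, and likewise without L1 AMO sample 1. *Pou5f1* and *Esrrb* passed without L1 AMO sample 2. The median log2 change of all bins was -0.033, -0.057, -0.067 and -0.035 in these fits in turn, against -0.050 on all samples.

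Contacts inside the bin itself ran from 20.7% of the within-chromosome contacts for *Tbx3* to 35.8% for *Pou5f1* over all samples. EdgeR called 0 of 7 gene bins and 0 of 5093 bins (0.0%) in this share, with 0 of the 7 and 39 of all bins at an unadjusted p under 0.05. DESeq2 called 0 bins too, with 272 at an unadjusted p under 0.05. The 2 SCR AMO samples differed in this share as much as the groups did, as with *Pou5f1* at 32.5% and 35.8% against 34.3% and 35.2%.

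**Figure D3:**
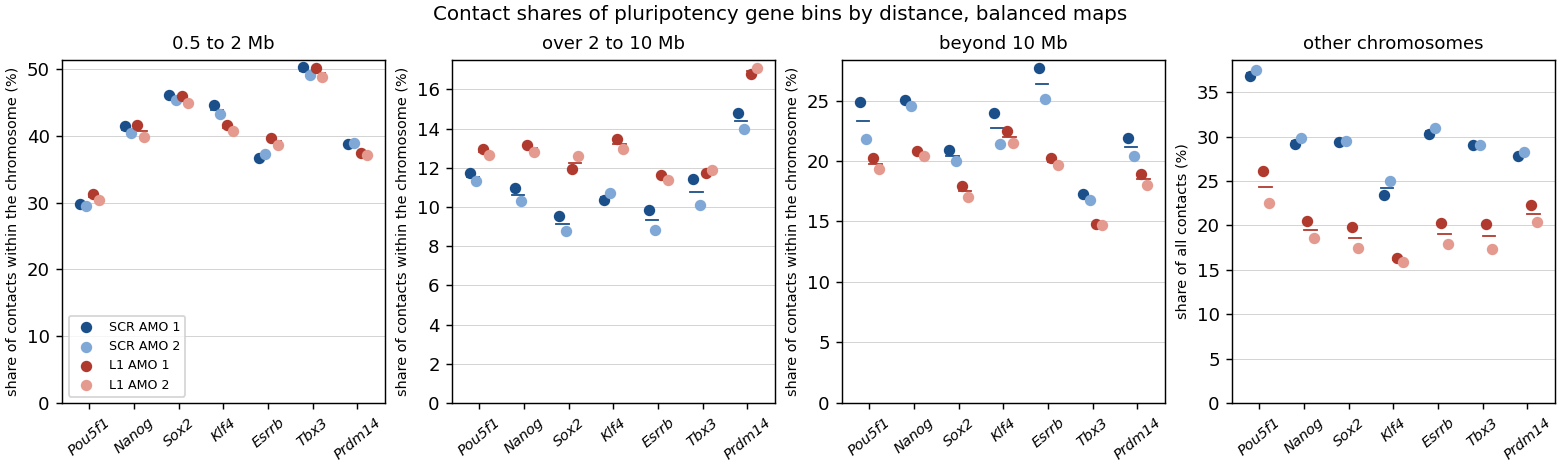
Percentage of contacts of the 7 gene bins in balanced maps, by distance within the chromosome (first 3 panels) and with other chromosomes (last panel), 1 point per sample with group means as lines. L1 AMO samples lie above SCR AMO samples over 2 to 10 Mb and below them in contacts with other chromosomes for all 7 genes, and overlap them for several genes over 0.5 to 2 Mb.

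The share of contacts with other chromosomes was 22.3% and 22.8% over whole SCR AMO maps, against 15.8% and 14.2% for L1 AMO. Of the gene bins *Pou5f1* had the highest share in every sample, 36.9% and 37.1% in SCR AMO and 27.0% and 24.0% in L1 AMO. *Klf4* had the lowest, 23.7% and 25.4% against 16.7% and 15.9%. The share fell in 7 of 7 gene bins, with log2 changes from -0.67 for *Sox2* to -0.54 for *Pou5f1*, and in 99.9% of all bins (edgeR, adjusted p under 0.05). The median was -0.61 for the 7 bins and -0.52 for all bins. With nearly every bin called, this is not a result about the gene bins.

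Contacts between the genes themselves were read from windows of the gene bin and 1 flanking bin per side, which gives 21 pairs of windows on different chromosomes. Counts over all 21 pairs were 581 and 129 in SCR AMO, against 199 and 120 in L1 AMO. Balanced and divided by the mean over all pairs of autosomal bins on different chromosomes, the pooled frequency was 1.22 (95% Poisson interval 1.12 to 1.32) and 1.36 (1.13 to 1.61) in SCR AMO, and 1.12 (0.970 to 1.29) and 1.01 (0.834 to 1.20) in L1 AMO. The gene windows thus met slightly more often than average bins in SCR AMO, and less often than pairs of A corner bins, whose values were 2.23, 2.08, 2.09 and 1.92 in the 4 samples. Not all gene bins belong to that corner. Contacts of the listed genes with A corner bins had 1.69, 1.62, 1.55 and 1.44, also above the contacts among the genes. With B corner bins they had 0.688, 0.727, 0.731 and 0.770.

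The group means were 1.29 (SD 0.0984, n = 2) and 1.06 (SD 0.0808, n = 2), a difference of -0.223 with an exact permutation p of 0.333, two-sided. With 2 samples against 2 this is the smallest p that the test can give. The intervals of the samples overlap, and they cover counting error only. For these trans contacts among the member windows, the first of the repeat L1 AMO matrices alone gave -0.0885 and the second alone -0.352.

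The pair of windows with the highest mean in SCR AMO was *Pou5f1* with *Tbx3* at 2.41, from 1.87 and 2.95, against 1.89 and 1.18 in L1 AMO. A low value was that of *Nanog* with *Sox2*, where SCR AMO sample 1 had 0.821 from 17 counts and sample 2 had 0 counts, which allows a value of up to 0.733, against 0.501 and 1.55 in L1 AMO. In L1 AMO the highest mean was that of *Pou5f1* with *Esrrb*, 1.98 from 2.34 and 1.61, where SCR AMO had 2.13 and 1.16. The lowest was *Pou5f1* with *Klf4*, 0.302 and 0.820 from 2 and 4 counts, where SCR AMO had 1.68 and 1.69 from 35 and 7 counts. *Pou5f1* had the highest mean over its 6 partners in both SCR AMO samples, 1.74 and 1.93, and in L1 AMO it had 1.31 and 1.25. These values are set against the mean of all autosomal bins and not against a window's own total. The *Pou5f1* bin also had the highest share of contacts with other chromosomes in the list, which raises its values with any partner.

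L1 AMO was lower in each sample, without overlap, for 8 of 21 pairs, against 17.5% of all 1176931 pairs of such windows in the autosomes. L1 AMO was higher in each sample for 1 pair, *Nanog* with *Prdm14*, against 17.0% of all such pairs. The pairs share windows and rest on 0 to 53 counts in a sample, so they are given as a description.

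**Figure D4:**
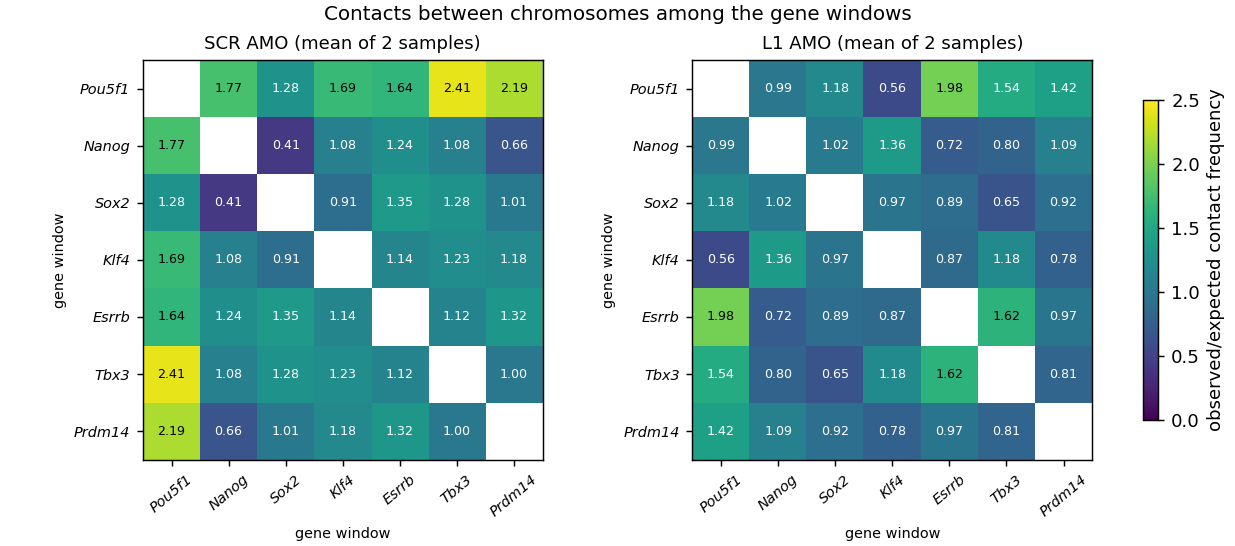
Observed/expected frequency of contacts between windows of different chromosomes (colour and number) for the 21 pairs of gene windows, as the mean of 2 samples in SCR AMO (left) and L1 AMO (right). The *Pou5f1* window has the highest values in SCR AMO, up to 2.41 with *Tbx3*, and its value with *Klf4* is 1.69 in SCR AMO and 0.561 in L1 AMO.

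The profiles of contacts with other autosomes were most alike for *Pou5f1* and *Tbx3*, with a Pearson r of 0.871 over 220 blocks of 10 Mb, all 4 samples pooled. *Esrrb* and *Tbx3* followed with 0.862 and *Pou5f1* and *Sox2* with 0.852. The least alike were *Nanog* and *Prdm14*, with -0.0252 over 210 blocks, and the 6 pairs with *Nanog* did not exceed 0.532. Blocks are not independent replicates, and all profiles share the 4 libraries and the compartment pattern of the genome, so r describes likeness and carries no p.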

How the data were processed

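Deposited matrices of counts were taken as the starting point, as raw contacts in 500-kb bins of mm9, and no reads were aligned here. The submitters' notes name CASAVA, HiC-Pro 2.7.1b and mm9. Bins run through the autosomes by number, then the sex chromosomes and M. Their layout was checked at 19 chromosome ends, where contact across the end was at most 0.119 of the mean at that bin distance within chromosomes. Repeat matrices of a sample were summed.

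The 7 genes and the comparisons were chosen with earlier results of these data known. A gene is named where its mm9 position falls in the bin, and neighbours are named from the order of genes in GRCm38. Other pluripotency genes were not analysed here, because no mm9 annotation was held.

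Maps were balanced by iterative correction in 15 rounds, leaving 5093 bins, 4780 of them autosomal. Expected contact was the mean at each distance on each chromosome. The signs of eigenvector 1 were linked over 171 of 171 pairs of chromosomes by contacts between chromosomes, and A was set as the end rich in B1 by the study's repeat table on chromosome 1 (|r| 0.823 over 385 bins). Poisson intervals are exact and cover counting error only. For a count of 0 the value that 3 counts would give is stated.

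Shares were tested with edgeR's quasi-likelihood method, with the log of a total of each bin as offset, and pairs of bins with TMM factors. For distance shares the total was that of contacts within the chromosome, and for the share with other chromosomes that of all contacts. For both A shares it was the bin's contacts with A and B corner bins, beyond 2 Mb within the chromosome. DESeq2 was the other tool. P-values were adjusted by Benjamini-Hochberg over all bins or pairs of a comparison, never over the 7 genes. Versions were Python 3.11.15, numpy 2.4.6, scipy 1.17.1, pandas 2.3.3, R 4.3.3, edgeR 4.0.16 and DESeq2 1.42.0.

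With 2 samples per group, variation between transfections is poorly known, and the samples differ in depth. The 7 genes are not replicates of each other, and a 500-kb bin holds other genes too.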

Additional observations from a re-analysis of the deposited data

How the results depend on the processing

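Each result was repeated with other choices, and some alternatives for pairs of bins change more than 1 choice. The distance offset without the *Prdm14* bin and 3 further alternatives were chosen after seeing the data. With 1 sample left in a group, the lone sample is assumed to vary like the other group. Causes of the differences below were not tested unless stated.

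For the same-bin share 0 of 7 bins were called, and 3 with TMM and no bin offset. Over 0.5 to 2 Mb 2 were called, and 1 with the first L1 AMO matrix alone, 1 with a coverage limit of 0.5, 1 with TMM and no bin offset, 0 with DESeq2 and 4 with same-bin contacts left out. Leaving out 1 sample gave 0 to 2 there, 5 to 7 over 2 to 10 Mb, 1 to 7 beyond 10 Mb and 7 to 7 for contacts with other chromosomes. The A share within the chromosome was called in 5, in 3 with DESeq2 and in 3 to 6 with 1 sample left out. Between chromosomes it was called in 2, in 0 with DESeq2 and in 0 to 2 with 1 sample left out.

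A replicate block, which pairs samples of the same number, gave 4 for the A share between chromosomes. Samples share only a number, and correlations of their deviations were between 0.0112 and 0.0852, and 0.461 for contacts with other chromosomes.

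TMM without a bin offset compares a count with other bins and not with the bin's own total, and by that construction signs turned. *Pou5f1* had -0.15 for the same-bin share, -0.0116 over 0.5 to 2 Mb and -0.25 over 2 to 10 Mb, and *Nanog* -0.16 for the same-bin share and -0.12 over 2 to 10 Mb. Over 2 to 10 Mb *Esrrb* had -0.0175 and *Tbx3* -0.22. *Prdm14* had 0.52 over 0.5 to 2 Mb, 0.44 beyond 10 Mb, 0.33 with other chromosomes, 0.13 for the A share within its chromosome and 0.32 for that between chromosomes, with the coverage of chromosome 1 at 0.975 and 0.975 in SCR AMO against 1.32 and 1.37 in L1 AMO. With same-bin contacts left out, *Tbx3* had 0.0333 over 0.5 to 2 Mb.

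Of the pairs with a gene bin 188 were called, 53 with a distance offset, 106 and 119 with the first and second L1 AMO matrix alone, 42 with the offset and a replicate block, 15 with DESeq2, 50 with the offset and without *Prdm14*, and 26 to 155 with 1 sample left out. For the 98 higher pairs these were 21 with the offset, 64 with the first matrix, 17 with offset and block, 14 with DESeq2, 52 without *Prdm14*, 21 with the offset and without *Prdm14*, and 17 to 85 with 1 sample left out. For the 90 lower pairs they were 57 with no filter on counts, 32 with the offset, 42 and 51 with the first and second matrix, 25 with offset and block, 1 with DESeq2, 29 with the offset and without *Prdm14*, and 9 to 70 with 1 sample left out.

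The difference in trans contacts among the member windows was -0.223, -0.0885 with the first L1 AMO matrix alone, -0.352 with the second, and -0.293 to -0.154 with 1 sample left out.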
